A study of Mus musculus with 4 samples.

Results

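The 8 genes described here belong to the cholesterol pathway: Hmgcs1, Idi1, Fdft1, Sqle, Lss and Cyp51, which encode enzymes of synthesis, and Insig1 and Srebf2, which encode regulators of these enzymes. They were chosen by name and found through their Ensembl identifiers among the 41214 genes of the count table, and all 8 passed the filter that left 14554 genes for testing. None of the 8 is an uptake receptor, so uptake was described from a separate list of genes. RNA was sequenced from unstimulated B220+ splenocytes, spleen cells selected with beads for the B cell surface protein B220. MIZ-1 is a transcription factor encoded by Zbtb17, with zinc fingers that bind DNA and a POZ domain through which it pairs with other proteins. In the MIZ-1△POZ mice (genotype Miz-1 deltaPOZ), Cre driven by the B cell promoter MB1 (MB1-Cre x Miz-1floxPOZ) had removed the POZ domain in B cells, leaving a truncated protein that keeps its zinc fingers. The MIZ-1WT mice carried the intact domain (genotype WT), and the mouse lines were on a C57BL/6 background. The labels used here give no age, and the paper's methods give an age range in days for its experiments in general. The labels also do not say whether the MIZ-1WT animals carried Cre. Each genotype had 2 libraries, labelled replicate 1 and replicate 2, which the paper's methods call a biological duplicate. No label says whether each came from 1 mouse or from several.

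Cholesterol is built from acetyl-CoA through HMG-CoA, mevalonate, isoprene units, squalene and lanosterol, and dividing cells need it for new membranes. The pathway is under feedback control: when sterols fall, SCAP carries SREBP2, the product of Srebf2, from the endoplasmic reticulum to the Golgi, where proteases release a fragment that enters the nucleus and switches on the enzymes. When sterols are plentiful, the INSIG proteins hold SCAP back. SREBP2 binds sterol regulatory elements in promoters, usually beside sites of NF-Y and Sp1, and Insig1 and Srebf2 are themselves targets of it.

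The promoters of 4 members are printed first, because Srebf2 and Lss are the members that differed between the genotypes and Hmgcs1 and Insig1, read by the same factor, are members that did not pass the test. They are the bases that lie before both the RefSeq and the first GENCODE start, from RefSeq on build GRCm38.p6, all on the plus strand: Srebf2 chr15:82147019-82147180, Lss chr10:76531355-76531587, Hmgcs1 chr13:119690101-119690350 and Insig1 chr5:28071162-28071362. Capitals mark the motifs searched, and a match on the minus strand appears as its reverse complement. The sterol regulatory element was searched as TCACNCCAC, and its shorter core, which overlaps it, as TCACNCCA. The box of NF-Y was searched as CCAAT and that of Sp1 was searched as GGGCGG. The E-box, bound by factors such as MYC and USF, was searched as CACGTG.
Srebf2: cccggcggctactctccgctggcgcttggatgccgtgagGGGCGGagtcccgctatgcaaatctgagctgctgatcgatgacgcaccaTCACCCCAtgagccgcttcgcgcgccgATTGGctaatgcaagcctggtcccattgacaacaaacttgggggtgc
Lss: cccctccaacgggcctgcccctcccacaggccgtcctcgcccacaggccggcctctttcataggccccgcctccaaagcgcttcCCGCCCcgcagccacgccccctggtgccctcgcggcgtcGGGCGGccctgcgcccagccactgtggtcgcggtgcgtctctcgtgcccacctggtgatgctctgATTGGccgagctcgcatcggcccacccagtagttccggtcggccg
Hmgcs1: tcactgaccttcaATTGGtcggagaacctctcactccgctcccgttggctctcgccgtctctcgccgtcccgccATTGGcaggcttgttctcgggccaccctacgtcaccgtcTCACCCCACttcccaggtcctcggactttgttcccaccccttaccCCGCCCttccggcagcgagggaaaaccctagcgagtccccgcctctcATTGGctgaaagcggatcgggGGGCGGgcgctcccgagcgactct
Insig1: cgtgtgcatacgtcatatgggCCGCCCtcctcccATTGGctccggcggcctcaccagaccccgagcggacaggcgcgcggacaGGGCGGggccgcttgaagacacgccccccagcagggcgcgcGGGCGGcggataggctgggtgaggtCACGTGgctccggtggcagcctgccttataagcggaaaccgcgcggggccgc

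Of the 8 members, 6 had a promoter in the RefSeq table, which holds 250 bases before and 50 bases after each start. TCACNCCAC was present in 1 of the 6, Hmgcs1, at -137 from the start, against 1.24% of all 32851 promoters. The shorter TCACNCCA, a search added after the promoters were seen, was present in Hmgcs1 and Srebf2, at -137 and -162, against 4.36% of all promoters. CCAAT and GGGCGG were present in 6 of 6, against 37.4% and 35.7% of all promoters, and CACGTG only in Insig1 among the 6, at -101, against 7.15%. In 17 genes of the early, late and sterol sensing lists described further on that had a promoter entry, TCACNCCAC was in none, TCACNCCA in 1, CCAAT in 13 and GGGCGG in 15. A match describes these letters in this window and is not evidence of binding. No binding data were analysed here.

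The libraries held between 43026814 and 46387209 counts in genes. Levels are given as CPM, a gene's counts relative to the total of its library after TMM scaling, and log2 fold changes are MIZ-1△POZ over MIZ-1WT. Adjusted p-values come from the quasi-likelihood test of edgeR, are adjusted by Benjamini-Hochberg across the tested genes, and are read at a threshold of 0.05. With 2 libraries per genotype, the p-values measure the spread between these libraries. Zbtb17, counted as a whole gene with no separation of the deleted exons, had 47.8 and 46.3 CPM in MIZ-1WT and 37.3 and 38.0 CPM in MIZ-1△POZ (log2 fold change -0.32 ± 0.06 SE, adjusted p = 0.00857). The genotypes also differed in sex markers. Xist had 1.12 and 1.43 CPM in MIZ-1WT and 801 and 930 CPM in MIZ-1△POZ. The Y-linked Ddx3y, Eif2s3y, Kdm5d and Uty had log2 fold changes of -4.66 to -4.29. In MIZ-1△POZ they still had 0.0397 to 0.0512 of the MIZ-1WT level, such as 14.3 and 14.2 CPM for Ddx3y, and the source of this was not tested. Sex and genotype thus cannot be told apart in any comparison that follows.

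Of the 8 members, 2 passed the test, Srebf2 and Lss, which were lower in MIZ-1△POZ at 0.780 and 0.844 of the MIZ-1WT level. The other 6, Hmgcs1, Idi1, Fdft1, Sqle, Cyp51 and Insig1, did not pass. At an unadjusted p under 0.05 the number was also 2, and with the DESeq2 Wald test it was 1, Srebf2. The 25% of members past the threshold stand beside 40.0% of all tested genes (21.1% higher and 18.9% lower in MIZ-1△POZ). The 2 genotypes' CPM did not overlap for 4 of 8 members, 1 higher and 3 lower, beside 74.8% of all tested genes. The median log2 fold change was -0.05 over the members and -0.01 over all tested genes, and the median size of the log2 fold change, with the sign left off, was 0.147 over the members and 0.263 over all tested genes. The members' median turned to 0.071 without MIZ-1WT replicate 2. The summed CPM of the members was 316 and 340 in MIZ-1WT and 305 and 306 in MIZ-1△POZ. In bulk RNA, fewer cells of a type and less RNA per cell cannot be told apart.

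**Figure D1:**
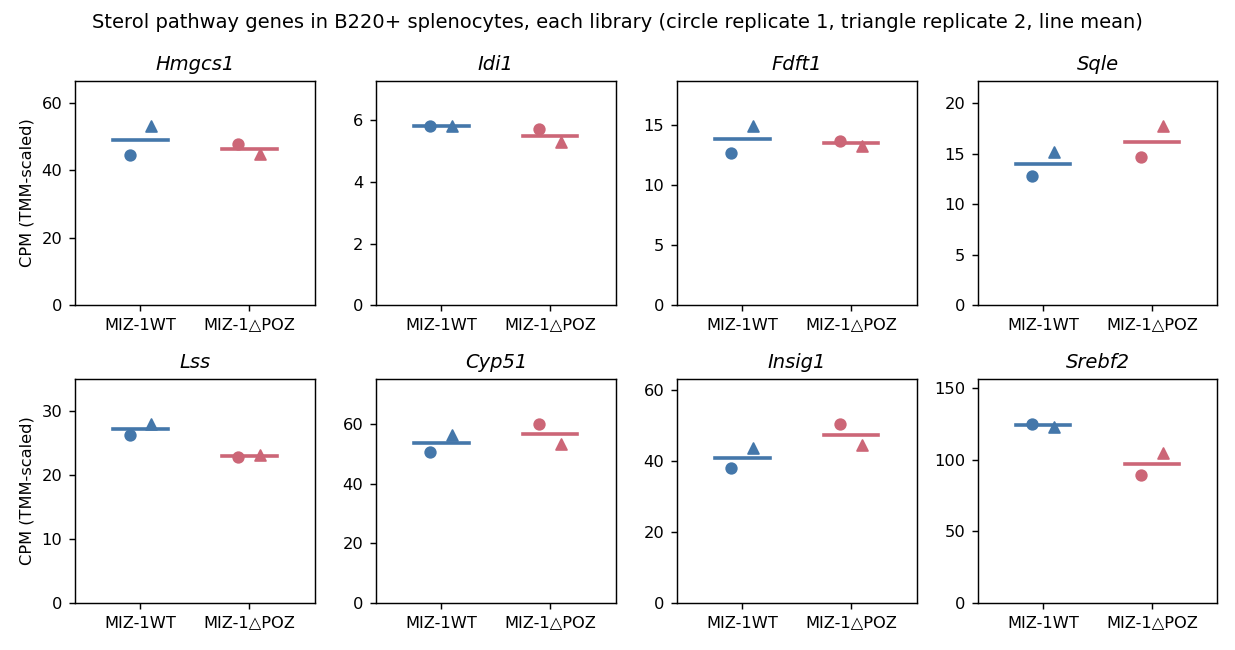
CPM (y axes, each starting at 0) of the 8 members in the 4 libraries; circles are replicate 1, triangles replicate 2 and lines the mean of each genotype. Srebf2 (125 and 123 against 89.3 and 104) and Lss (26.2 and 28.0 against 22.7 and 23.0) lay lower in both MIZ-1△POZ libraries, while Hmgcs1, Fdft1, Sqle and Cyp51 overlapped between the genotypes.

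Srebf2 (ENSMUSG00000022463, chr15:82147181-82205379, plus strand), the transcription factor gene of the pathway, had 5467 and 5165 counts in MIZ-1WT and 4249 and 4585 counts in MIZ-1△POZ. These were 125 and 123 CPM against 89.3 and 104 CPM, so that both MIZ-1△POZ libraries lay below both MIZ-1WT libraries. The log2 fold change was -0.36 ± 0.08 (SE, 95% confidence interval -0.55 to -0.16, adjusted p = 0.0179). The MIZ-1WT libraries were 0.03 apart on the log2 scale and the MIZ-1△POZ libraries 0.23, so the difference between genotypes was larger than the difference within either. Without MIZ-1WT replicate 1 the log2 fold change was -0.34 (adjusted p = 0.103), and without MIZ-1WT replicate 2 it was -0.37 (adjusted p = 0.0808). The pan-B cell markers moved in the same direction: 7 of 10 were lower and 1 was higher, beside 18.9% and 21.1% of all tested genes. Their median log2 fold change was -0.24, and their summed CPM was 12682 and 13000 in MIZ-1WT and 11234 and 11895 in MIZ-1△POZ. Their part in the value of Srebf2 was not tested.

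Insig1 (ENSMUSG00000045294, chr5:28071363-28078662, plus strand) encodes the INSIG protein that is itself made in response to SREBP2 and often serves as a readout of it. It had 1657 and 1831 counts in MIZ-1WT and 2403 and 1945 counts in MIZ-1△POZ, or 38.0 and 43.6 CPM against 50.5 and 44.3 CPM. The libraries did not overlap, but MIZ-1△POZ replicate 2 lay only just above MIZ-1WT replicate 2. The log2 fold change was 0.22 ± 0.10 (SE, 95% confidence interval -0.02 to 0.46) and did not pass the test (adjusted p = 0.124). This interval runs from 0.986 to 1.37 of the MIZ-1WT level. Without MIZ-1△POZ replicate 2, Insig1 passed the test, at 0.33 (adjusted p = 0.0376). The point estimates of Srebf2 and Insig1 thus had opposite signs, and only that of Srebf2 passed the test with all 4 libraries.

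Hmgcs1 (ENSMUSG00000093930, chr13:119690379-119708260, plus strand) encodes the cytosolic HMG-CoA synthase, which makes the substrate of the mevalonate step. It had 1945 and 2238 counts in MIZ-1WT and 2284 and 1966 counts in MIZ-1△POZ, or 44.6 and 53.2 CPM against 48.0 and 44.8 CPM. Both MIZ-1△POZ values fell within the range of the MIZ-1WT values. The log2 fold change was -0.08 ± 0.10 (SE, adjusted p = 0.561), with an interval of 0.805 to 1.12 of the MIZ-1WT level, and turned to 0.055 without MIZ-1WT replicate 2. Of the 50-base windows along its transcripts, 11.6% also occur in other genes, mainly Gm48342, which overlaps its exons by 557 bases on the opposite strand.

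Idi1 (ENSMUSG00000058258, chr13:8885501-8892451, plus strand), the isomerase that balances the isoprene units, was the least abundant member in CPM. It had 254 and 244 counts in MIZ-1WT and 272 and 232 counts in MIZ-1△POZ, or 5.82 and 5.80 CPM against 5.71 and 5.28 CPM. The values lay just below those of MIZ-1WT, and the log2 fold change was -0.08 ± 0.13 (SE, 95% confidence interval -0.40 to 0.24, adjusted p = 0.650). Of the 50-base windows along its transcripts, 25.3% also occur in transcripts of other genes. Among these are Gm13502, and Gm48574, which overlaps exons of Idi1 by 323 bases on the opposite strand. Reads aligned to several places were counted for no gene, so some reads of Idi1 may be missing from its counts.

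Fdft1 (ENSMUSG00000021273, chr14:63145150-63179578, minus strand) encodes squalene synthase, which commits farnesyl pyrophosphate to sterols. It had 554 and 629 counts in MIZ-1WT and 653 and 584 counts in MIZ-1△POZ, or 12.7 and 15.0 CPM against 13.7 and 13.3 CPM. Both MIZ-1△POZ libraries lay between the MIZ-1WT libraries. The log2 fold change was -0.03 ± 0.11 (SE, 95% confidence interval -0.30 to 0.23, adjusted p = 0.825), and its sign turned when the libraries were scaled by their totals alone (0.027), without MIZ-1WT replicate 2 (0.087) and without MIZ-1△POZ replicate 2 (0.0085). Exons of Fdft1 share 774 bases with Ctsb, a lysosomal protease gene on the opposite strand whose log2 fold change was 1.55 (adjusted p = 0.00321). The strand setting of the counting is not given in the sources used here, so how reads in that stretch were assigned is not known. Reads held as ambiguous were counted for no gene.

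Sqle (ENSMUSG00000022351, chr15:59315077-59331192, plus strand) encodes squalene epoxidase, a rate-limiting enzyme of the sterol branch. It had 559 and 639 counts in MIZ-1WT and 697 and 779 counts in MIZ-1△POZ, or 12.8 and 15.2 CPM against 14.6 and 17.7 CPM. MIZ-1△POZ replicate 1 lay below MIZ-1WT replicate 2, so the genotypes overlapped. The log2 fold change was 0.21 ± 0.13 (SE, adjusted p = 0.259). The interval, from 0.919 to 1.45 of the MIZ-1WT level, was the widest among the members.

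Lss (ENSMUSG00000033105, chr10:76531588-76557138, plus strand) encodes lanosterol synthase, which folds epoxidized squalene into the first sterol. It had 1144 and 1176 counts in MIZ-1WT and 1082 and 1010 counts in MIZ-1△POZ, or 26.2 and 28.0 CPM against 22.7 and 23.0 CPM. Both MIZ-1△POZ libraries lay below both MIZ-1WT libraries, and the replicates of each genotype were close, 0.09 and 0.02 apart on the log2 scale. The log2 fold change was -0.24 ± 0.07 (SE, 95% confidence interval -0.42 to -0.07, adjusted p = 0.0374). Among other settings, the call was lost with scaling by library totals alone (-0.18, adjusted p = 0.0848), upper quartile scaling (-0.22, adjusted p = 0.0532) and the DESeq2 Wald test (-0.25, adjusted p = 0.0786). It was lost as well when any 1 of the 4 libraries was left out (log2 fold change from -0.29 to -0.20, adjusted p from 0.0715 to 0.198).

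Cyp51 (ENSMUSG00000001467, chr5:4081145-4104746, minus strand) encodes lanosterol demethylase, the enzyme that follows Lss. It had 2212 and 2378 counts in MIZ-1WT and 2871 and 2344 counts in MIZ-1△POZ, or 50.7 and 56.6 CPM against 60.3 and 53.4 CPM. Its exons share 166 bases with Akap9 on the opposite strand. The genotypes overlapped, and the log2 fold change was 0.08 ± 0.09 (SE, 95% confidence interval -0.13 to 0.30, adjusted p = 0.469). Lss and Cyp51, consecutive steps of the pathway, thus had point estimates of opposite sign, and the difference between them was not tested.

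The other genes of the pathway were read from lists that, with the members, do not hold every gene of the pathway. In the early pathway, from acetoacetyl-CoA to farnesyl pyrophosphate, 1 of 5 genes passed the test, beside 40.0% of all tested genes. Pmvk, phosphomevalonate kinase, had 21.9 and 21.5 CPM in MIZ-1WT and 25.9 and 25.3 CPM in MIZ-1△POZ. It rose, with a log2 fold change of 0.24 ± 0.07 (SE, adjusted p = 0.0345), but lost the call under several settings, among them the DESeq2 Wald test, no filter on counts, and the fits without either MIZ-1WT replicate or MIZ-1△POZ replicate 1. Acat2, Mvk, Mvd and Fdps did not pass, with log2 fold changes from -0.07 to 0.18. Fdps, farnesyl pyrophosphate synthase, had 18.4 and 21.6 CPM against 23.6 and 21.4 CPM (log2 fold change 0.17, adjusted p = 0.238).

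In the late pathway, from lanosterol to cholesterol, 1 of 9 genes passed the test, beside 40.0% of all tested genes. It was in the lower direction. Lbr, a protein of the inner nuclear membrane with a sterol reductase domain, had 446 and 432 CPM in MIZ-1WT and 368 and 352 CPM in MIZ-1△POZ (log2 fold change -0.29 ± 0.05 SE, adjusted p = 0.00798). The call of Lbr was lost without MIZ-1WT replicate 1. Lbr also anchors chromatin and the lamina at the nuclear envelope. The remaining 8 ranged from -0.10 to 0.22. Ebp, the sterol isomerase, had 36.9 and 39.1 CPM against 42.7 and 41.8 CPM (log2 fold change 0.15, adjusted p = 0.0930). Ebp and Nsdhl (0.22, adjusted p = 0.126) lie on the X chromosome, and the genotypes differed in sex markers.

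Among the 20 enzymes of cholesterol synthesis, which are the 6 members, the early and the late list, 1 was higher (Pmvk), 2 were lower (Lss and Lbr) and 17 did not pass the test, beside 40.0% of all tested genes past it. The median log2 fold change over the 20 was 0.08 and the values ranged from -0.29 to 0.24. Taking all 20 confidence intervals, the lowest bound was 0.708 of the MIZ-1WT level and the highest 1.45, so larger changes of any of these enzymes lie outside its 95% interval.

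**Figure D2:**
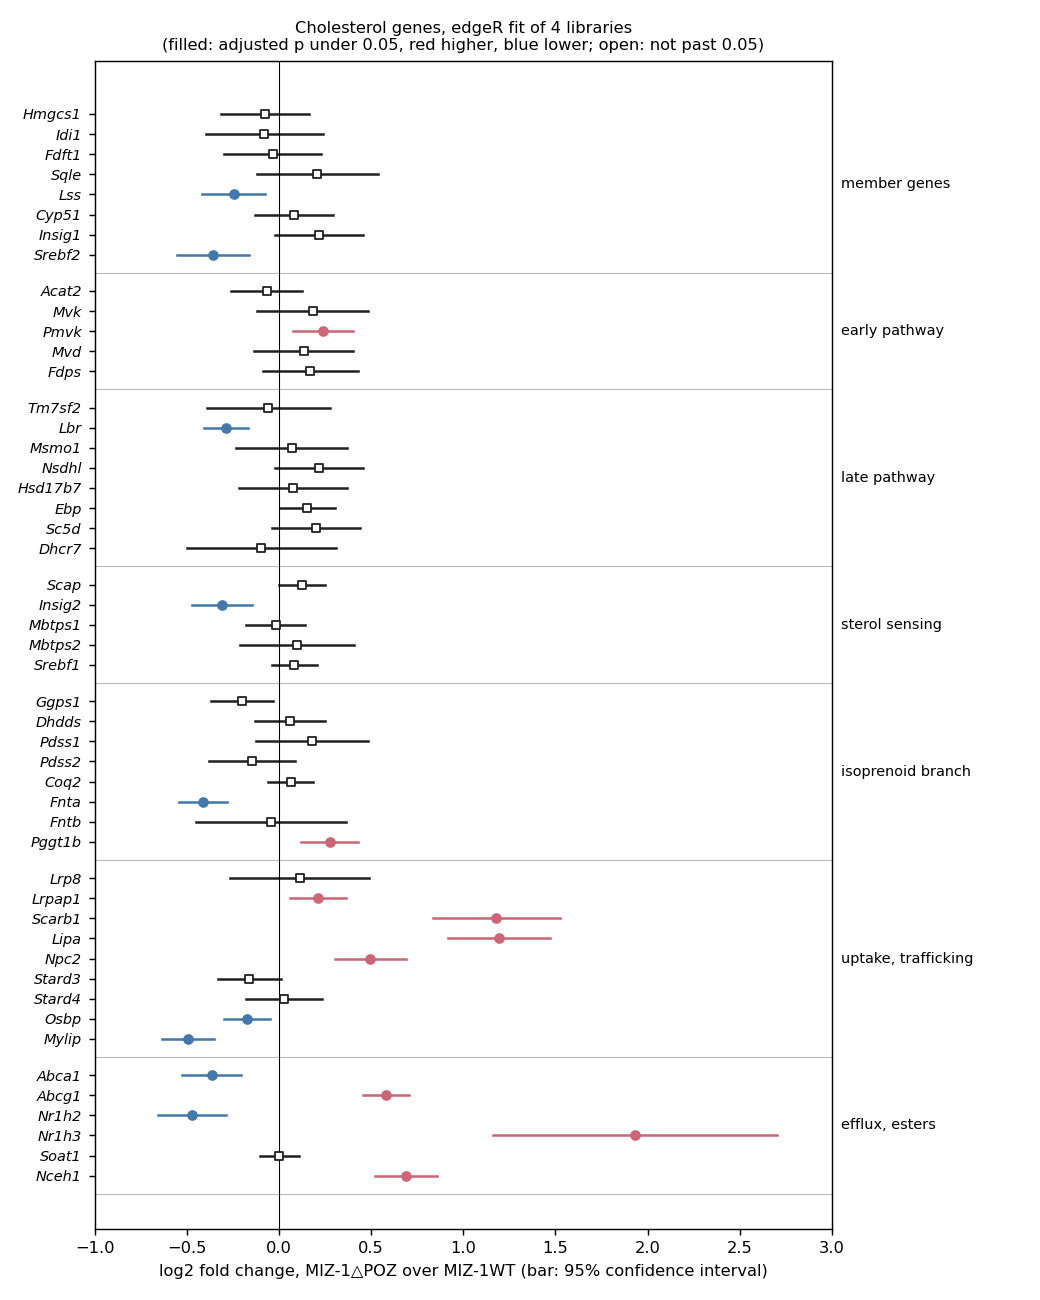
Log2 fold change of tested genes of 7 lists, MIZ-1△POZ over MIZ-1WT (x axis), with its 95% confidence interval; filled symbols passed an adjusted p of 0.05 (red higher, blue lower) and open squares did not. The synthesis enzymes lie between -0.29 and 0.24, whereas Scarb1, Lipa and Nr1h3 of the uptake and efflux lists lie at 1.18, 1.20 and 1.93.

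Of the 5 genes that sense sterols and process SREBP, 1 passed the test, beside 40.0% of all tested genes. Insig2, the other INSIG gene, had 28.7 and 27.7 CPM in MIZ-1WT and 23.0 and 22.5 CPM in MIZ-1△POZ (log2 fold change -0.31 ± 0.07 SE, adjusted p = 0.0160). It did not pass without either of the MIZ-1WT replicates. Scap, the escort protein, was at 0.13 (adjusted p = 0.0941), and the protease genes Mbtps1 and Mbtps2 were at -0.02 (adjusted p = 0.843) and 0.10 (adjusted p = 0.573). Srebf1, which encodes the related factor with more effect on fatty acid genes, had 70.2 and 70.7 CPM against 73.2 and 76.1 CPM (log2 fold change 0.08, adjusted p = 0.229). The values of Srebf2 and Srebf1 are fits of their own, and whether the genes differ from each other in response was not tested.

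The isoprenoid branch uses farnesyl pyrophosphate for protein anchors, dolichol and ubiquinone instead of sterols. Of its 8 genes, Fnta, the shared subunit of the enzymes that attach isoprenoids to proteins, fell from 77.6 and 77.9 CPM to 60.0 and 56.9 CPM (log2 fold change -0.41 ± 0.05 SE, adjusted p = 0.00349). Pggt1b, the partner of Fnta in attaching geranylgeranyl groups, rose from 33.0 and 32.6 CPM to 41.0 and 38.4 CPM (0.28 ± 0.06 SE, adjusted p = 0.0192). The call of Pggt1b was lost without either MIZ-1WT replicate and without MIZ-1△POZ replicate 1. Fntb, the partner of Fnta in farnesyltransferase, had 4.77 and 5.04 CPM against 4.22 and 5.31 CPM (-0.04, adjusted p = 0.855), and Ggps1, which makes geranylgeranyl pyrophosphate, was at -0.20 (adjusted p = 0.0615).

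Of 9 tested uptake and trafficking genes, 4 were higher and 2 lower in MIZ-1△POZ, beside 40.0% of all tested genes in either direction, and Vldlr had 0 counts in all 4 libraries. Scarb1, a receptor for high density lipoprotein, had 10.7 and 11.2 CPM in MIZ-1WT and 28.0 and 21.4 CPM in MIZ-1△POZ (log2 fold change 1.18 ± 0.14 SE, adjusted p = 0.00287). Lipa, the lysosomal lipase that frees cholesterol from lipoprotein esters, had 59.8 and 67.3 CPM against 161 and 131 CPM (1.20 ± 0.11 SE, adjusted p = 0.00172). Both were higher in MIZ-1△POZ replicate 1 than in replicate 2. Npc2, which hands on cholesterol inside the lysosome, was at 0.50 (adjusted p = 0.00619) and Lrpap1, a chaperone of lipoprotein receptors, at 0.21 (adjusted p = 0.0397). In the other direction, Mylip, a ubiquitin ligase that removes lipoprotein receptors, had 161 and 169 CPM against 113 and 122 CPM (-0.49 ± 0.06 SE, adjusted p = 0.00271), and Osbp, an oxysterol binding protein, was at -0.17 (adjusted p = 0.0422). The calls of Lrpap1 and Osbp were lost under several settings: both with the DESeq2 Wald test and without either MIZ-1WT replicate or MIZ-1△POZ replicate 1, Lrpap1 also without MIZ-1△POZ replicate 2 or the filter on counts, and Osbp also with library totals, upper quartile scaling or a mean of at least 1 CPM. Npc2 lost its call without MIZ-1WT replicate 1. Stard3, the most abundant of the genes that did not pass, was at -0.16 (adjusted p = 0.121).

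The 16 macrophage markers moved with the higher group of uptake genes. All 16 were higher in MIZ-1△POZ, beside 21.1% of all tested genes, and none was at 0 in any library. Their summed CPM was 980 and 1305 in MIZ-1WT and 5837 and 3649 in MIZ-1△POZ. Their median log2 fold change was 1.98, and MIZ-1△POZ replicate 1 lay above replicate 2, as it did for Scarb1, Lipa and Npc2. Their part in the values of these genes was not tested. The summed CPM of the members in the same MIZ-1△POZ libraries was 305 and 306. Within this sum, Srebf2, Sqle and Lss were lower in replicate 1, and Hmgcs1, Idi1, Fdft1, Cyp51 and Insig1 were higher. The members' median log2 difference, replicate 1 minus replicate 2, was -0.18 in MIZ-1WT and 0.07 in MIZ-1△POZ. For the macrophage markers it was -0.39 and 0.68. Their part in the values of the members was not tested either.

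**Figure D3:**
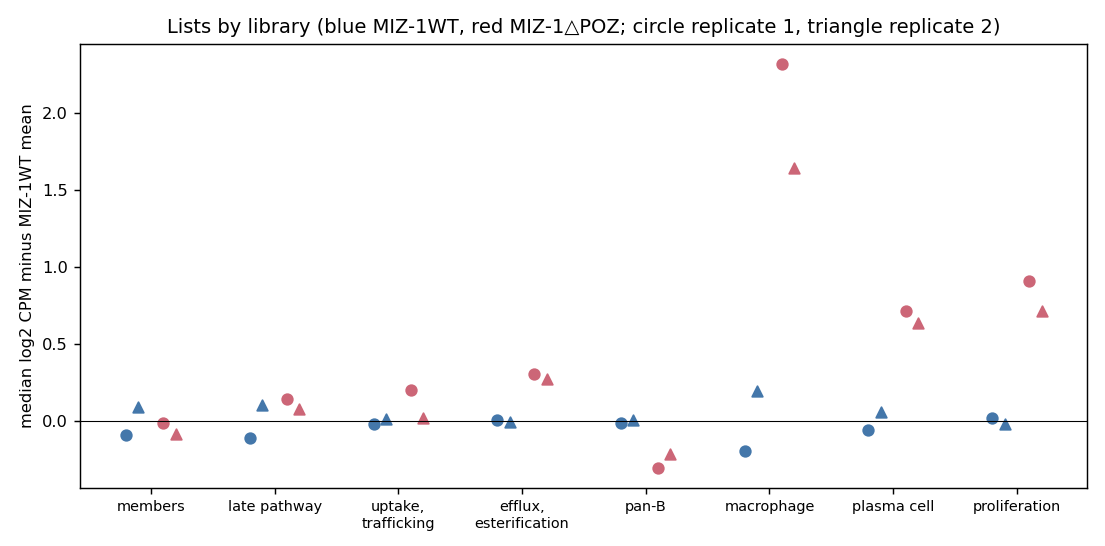
Median over the genes of each list of log2 CPM minus the MIZ-1WT mean (y axis), for each library; circles are replicate 1 and triangles replicate 2. The members and the late pathway lie near 0 in all 4 libraries, the macrophage, plasma cell and proliferation lists lie higher in both MIZ-1△POZ libraries (median log2 fold changes of 1.98, 0.67 and 0.81), and the pan-B list lies lower (-0.24).

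Proliferation genes are a further group of interest beside sterol synthesis, because dividing cells make membranes. All 12 were higher in MIZ-1△POZ, beside 21.1% of all tested genes higher and 18.9% lower. Their median log2 fold change was 0.81, and their summed CPM was 783 and 770 in MIZ-1WT and 1755 and 1553 in MIZ-1△POZ. Mki67, a marker of cycling cells, was at 2.13 (adjusted p = 6.06e-05). The 20 synthesis enzymes had a median of 0.08 in the same libraries. The relation between proliferation genes and synthesis enzymes was not tested, and bulk RNA does not show which cells carried either. Of the other marker lists, 5 of 6 plasma cell markers were higher, 7 of 7 erythroid markers overlapped between the genotypes with a higher summed CPM in MIZ-1△POZ replicate 2 (117) than in the other libraries (39.8 to 62.1), T cell markers had 1 higher and 1 lower of 10, and plasmacytoid dendritic cell and neutrophil markers had 1 higher of 6 and 1 higher of 5 tested. Of the pan-B markers, Ms4a1 and Cd79b were present in every library, and the summed CPM of the list was at least 11234. This does not measure the purity of the B220+ cells. Macrophage markers summed to 980 and 1305 CPM in MIZ-1WT and to 5837 and 3649 CPM in MIZ-1△POZ.

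Levels between genes were compared per length, as RPKM, the CPM divided by the merged exon length in kilobases. In MIZ-1WT the order was Srebf2 (17.3 ± 0.240 RPKM, SD, n = 2), Insig1 (13.2 ± 1.28), Cyp51 (12.1 ± 0.940), Hmgcs1 (10.6 ± 1.33), Fdft1 (3.27 ± 0.379), Sqle (2.53 ± 0.304), Lss (2.51 ± 0.115) and Idi1 (1.66 ± 0.00350). Insig1 and Cyp51, Cyp51 and Hmgcs1, and Sqle and Lss did not differ beyond their spread. In MIZ-1△POZ the means were 15.3 RPKM for Insig1, 13.5 for Srebf2, 12.9 for Cyp51, 10.1 for Hmgcs1, 3.20 for Fdft1, 2.92 for Sqle, 2.12 for Lss and 1.57 for Idi1, where Insig1 (± 1.41, SD, n = 2) and Srebf2 (± 1.49) did not differ beyond their spread. The order depends on the length used: with the longest transcript in place of merged exons, Lss rose in the MIZ-1WT order to 3.88 RPKM, above Fdft1 (3.74) and Sqle (3.14), and Hmgcs1 (14.1) stood above Cyp51 (13.6). The step between the 4 genes at or above 10.6 RPKM and the 4 at or below 3.27 RPKM was present with both lengths.

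**Figure D4:**
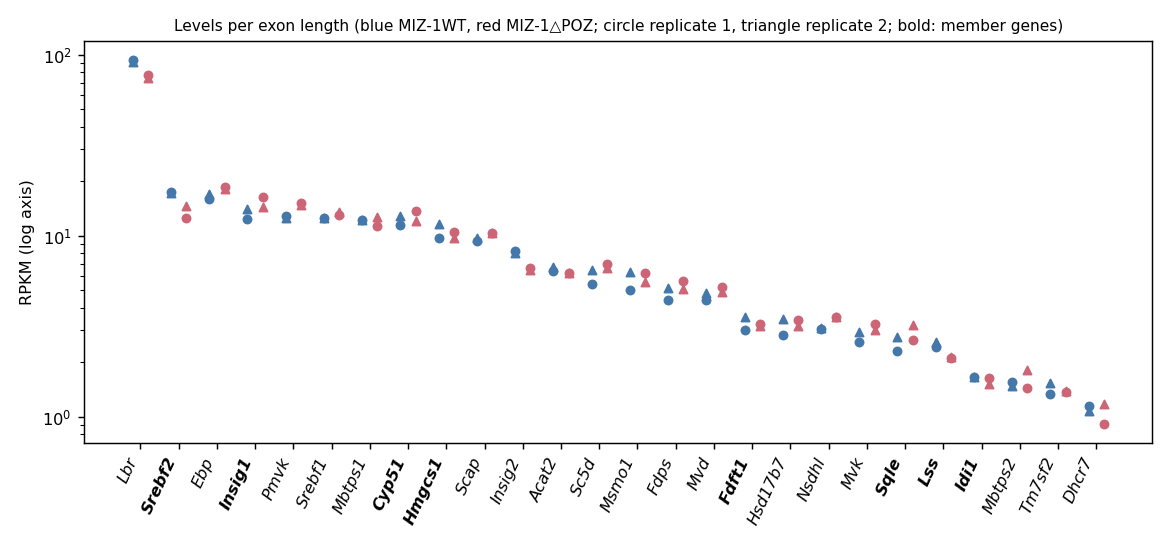
RPKM (log axis) of the members (bold) and of early, late and sterol sensing genes in each library, ordered by level; blue is MIZ-1WT, red MIZ-1△POZ, circles replicate 1 and triangles replicate 2. Lbr stands above all others at 92.3 RPKM in MIZ-1WT, followed by Srebf2 at 17.3, and Idi1 (1.66) is among the lowest.

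Most of the synthesis enzymes shared a difference between replicates. In MIZ-1WT, 16 of 20 were lower in replicate 1 than in replicate 2, with a median log2 difference of -0.16, and in MIZ-1△POZ 15 of 20 were higher in replicate 1, with a median of 0.05. Both held for 12 of 20 enzymes, beside 28.2% of 14527 genes. Among the members, the log2 difference between MIZ-1WT replicates was -0.26 for Hmgcs1, -0.25 for Sqle, -0.24 for Fdft1, -0.20 for Insig1 and -0.16 for Cyp51, each as large as or larger than its difference between the genotypes except for Insig1. Srebf2 and Idi1 did not share it, with 0.03 and 0.004 in MIZ-1WT, where Lss had -0.09. Sqle and Lss were lower in replicate 1 in MIZ-1△POZ too, at -0.28 and -0.02. Replicate numbers have no order, and the genes are not independent of each other, so these counts describe the libraries. Over all tested genes the median difference was 0.00 in both genotypes. The macrophage markers had medians of the same signs as the enzymes and larger, -0.39 in MIZ-1WT and 0.68 in MIZ-1△POZ. The T cell markers had the opposite signs, 0.51 and -0.24. Whether the mix of cells in each library had a part in the enzyme values was not tested.

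**Figure D5:**
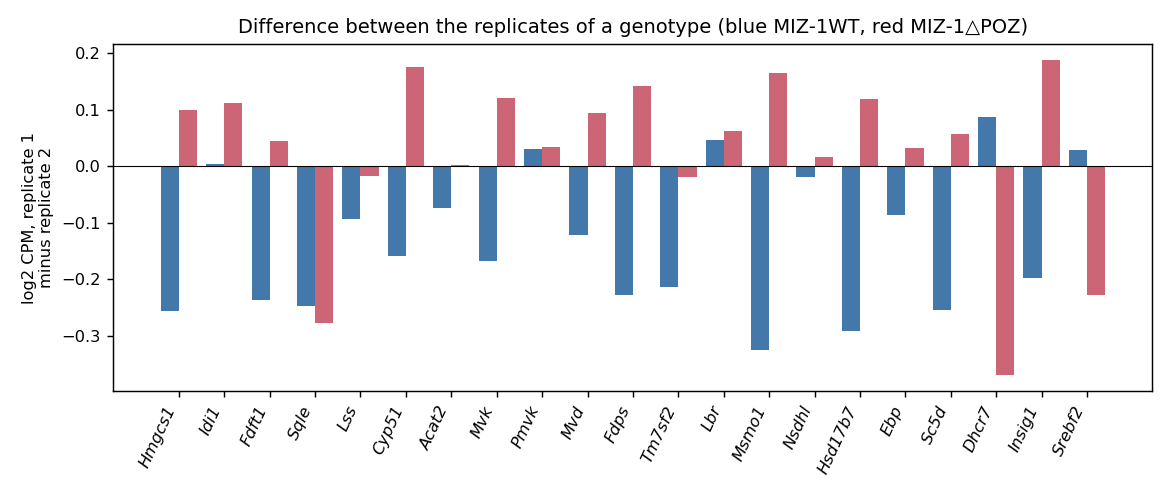
Log2 CPM of replicate 1 minus replicate 2 (y axis) within MIZ-1WT (blue) and MIZ-1△POZ (red) for the synthesis enzymes named on the x axis, Insig1 and Srebf2. Most blue bars point down, to -0.32 for Msmo1, while Srebf2 (0.03) and Idi1 (0.004) are among those near 0 in MIZ-1WT.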

How the data were processed

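RNA of B220+ splenocytes was depleted of ribosomal RNA, made into stranded libraries and sequenced from both ends. The deposited values are the authors' raw counts for each Ensembl gene and library, with no normalization. The paper's methods name Trimmomatic, TopHat2 and HTSeq, and the submitters' processing notes give TopHat2 2.1.0 and build GRCm38. The strand setting and the Ensembl release of the counting are not given in the sources used here. The summary lines of HTSeq entered neither library sizes nor tests, and held 21.1% to 27.2% of the table as reads outside genes, 0.281% to 0.302% as ambiguous reads and 42.8% to 44.1% as reads aligned to several places.

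Symbols, positions and exon lengths came from GENCODE M21 on GRCm38, which gave a symbol to 40340 of 41214 genes. A gene was tested if 2 or more libraries held 10 or more of its counts, with edgeR 4.0.16 in R 4.3.3 (quasi-likelihood test, TMM factors from 0.977 to 1.03, common dispersion 0.00848), with no covariate. edgeR recovery was tested on simulated data. Depth per library ranged from 43026814 to 46387209 counts. Log2 CPM for the correlation of replicate differences between genotypes and for the nearest profiles used a prior count of 2. The replicate differences given for single genes, and their medians, are log2 ratios of CPM with no prior count. DESeq2 1.42.0, other scalings, other filters, a replicate block and removal of each library were alternatives.

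The members, the gene lists, the marker lists and the rule for named genes were chosen with earlier results of these data known. The rule named all members, the list genes past the threshold, the most abundant other gene of each list, and the 5 genes nearest in profile. Other list genes and Ctsb were named after their values were seen. Some list genes entered the counts and are not reported here by name.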

Additional observations from a re-analysis of the deposited data

How the results depend on the processing

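Srebf2 kept its direction in all alternatives and its call in all but those without MIZ-1WT replicate 1 or 2, with log2 fold changes from -0.46 to -0.24 with 1 library left out. Lss kept its direction, with -0.18 (library totals), -0.22 (upper quartile), -0.25 (DESeq2 Wald test) and -0.24 (replicate block) where its call was lost, and from -0.29 to -0.20 with 1 library left out. Insig1 ranged from 0.12 to 0.33 with 1 library left out and was past the threshold only without MIZ-1△POZ replicate 2. Fdft1 changed sign with library totals (0.027) and ranged from -0.15 to 0.087 with 1 library left out (0.0085 without MIZ-1△POZ replicate 2), and Hmgcs1 from -0.20 to 0.055. The members' median ranged from -0.11 to 0.071. Scaling by library totals shifted the median of all tested genes to 0.05.

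Lower members past the threshold numbered 1 with library totals, upper quartile scaling, the DESeq2 Wald test or the block, and from 0 to 1 with 1 library left out, while higher members ranged from 0 to 1. Calls over all genes ranged from 1374 to 2955 higher and from 848 to 2625 lower with 1 library left out, the lowest without MIZ-1WT replicate 1, and were 1728 and 1115 without MIZ-1WT replicate 2. Leaving out a library leaves 1 in its genotype, which is then assumed to vary like the other genotype. Early pathway calls were 0 with the DESeq2 Wald test, no filter on counts and the block. Library totals gave 2 calls each in the late pathway, oxysterol and sterol sensing lists, and oxysterol calls were also 2 with upper quartile scaling, no filter and the block. With 1 library left out, calls ranged from 0 to 1 in the early pathway, late pathway and sterol sensing lists, from 1 to 2 in the isoprenoid and oxysterol lists, from 1 to 5 in fatty acid synthesis, from 2 to 5 in efflux and esterification and from 3 to 5 in uptake and trafficking, where the lowest counts of the last 3 came without MIZ-1WT replicate 1. The causes were not tested. With the longest transcript as the length, the MIZ-1WT levels were 24.4 RPKM for Srebf2, 15.1 for Insig1, 14.1 for Hmgcs1, 13.6 for Cyp51, 3.88 for Lss, 3.74 for Fdft1, 3.14 for Sqle and 1.92 for Idi1. Of the 21 list genes named in the text as past the threshold, none changed sign in any alternative. Of these, 8 were still past the threshold without MIZ-1WT replicate 1, 15 without MIZ-1WT replicate 2, 17 without MIZ-1△POZ replicate 1, 20 without MIZ-1△POZ replicate 2, 18 with the DESeq2 Wald test or the block and from 19 to 21 in the others.

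The replicate numbers gave no sign of pairing: the difference between replicates 1 and 2 correlated at -0.07 between genotypes over 14554 genes. The replicate block lowered the calls over all genes from 5822 to 4732.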

Other observations

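Genes that handle sterols after synthesis moved in both directions. Of 6 efflux and esterification genes, 3 were higher and 2 lower, beside 21.1% and 18.9% of all tested genes, and the calls of Abca1, Nr1h2 and Nr1h3 were lost without MIZ-1WT replicate 1. Abcg1, a sterol exporter, had 97.2 and 95.6 CPM in MIZ-1WT and 149 and 140 CPM in MIZ-1△POZ (log2 fold change 0.58, adjusted p = 0.00146), and Abca1, the other exporter, had 376 and 341 CPM against 270 and 287 CPM (-0.36, adjusted p = 0.00902). The liver X receptor genes, whose products sense oxysterols, also differed in sign: Nr1h3 had 9.21 and 11.1 CPM against 50.9 and 26.5 CPM (1.93, adjusted p = 0.00676) and Nr1h2 67.7 and 63.3 CPM against 44.7 and 49.8 CPM (-0.47, adjusted p = 0.00619). Nceh1, which hydrolyses cholesterol esters, was at 0.69 (adjusted p = 0.00185), and Soat1, which forms them, had 171 and 170 CPM against 169 and 172 CPM (0.00, adjusted p = 0.971). The summed macrophage markers, 4.15 times as high in MIZ-1△POZ and higher in its replicate 1, moved with Nr1h3; their part was not tested. In the oxysterol list, Gpr183, the receptor through which oxysterols guide B cells, fell from 182 and 173 CPM to 129 and 134 CPM (-0.43, adjusted p = 0.00262), Cyp27a1 was at 0.22 (adjusted p = 0.0995), and Ch25h had 0 counts in all 4 libraries.

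Of 11 tested fatty acid synthesis genes, 2 were higher and 2 lower, a share of 36.4% past the threshold beside 40.0% of all tested genes, and the calls of Scd1, Elovl5 and Elovl6 were lost without MIZ-1WT replicate 1. Scd1, the stearoyl-CoA desaturase, was the most abundant, with 1022 and 989 CPM in MIZ-1WT and 734 and 809 CPM in MIZ-1△POZ (-0.38, adjusted p = 0.00791), and the elongase Elovl5 was at -0.29 (adjusted p = 0.00711). Fads1, a desaturase of polyunsaturated fatty acids, had 3.55 and 3.81 CPM against 13.4 and 9.16 CPM (1.62, adjusted p = 0.00351), and Elovl6 was at 1.04 (adjusted p = 0.00859). Acly, which supplies acetyl-CoA to fatty acids and sterols alike, was at -0.08 (adjusted p = 0.183), and Fasn, the fatty acid synthase, at -0.02 (adjusted p = 0.795).

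The 5 genes nearest to the members' median profile over the 4 libraries, by Euclidean distance of centred log2 CPM, were Mbd1 (0.0372), Tmem106b (0.0373), Rab12 (0.0395), Gk (0.0408) and Gm4617 (0.0426). With 277 tested genes within a distance of 0.1, this likeness is not particular to them.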
